A study of Mus musculus with 3 samples.

Results

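A set of 10 genes that mark white and brown fat cells was followed in lower-limb skeletal muscle, in which fat cells lie between the fibres and around the muscle. The set was given by name: Adipoq, Cfd, Retn, Lep, Fabp4, Pparg, Plin1, Pck1, Ucp1 and Car3. All 10 genes had a probe, with 11 probes in 29 spots among the 39429 probes (43020 spots) that were not controls. Probes were found through the RefSeq accession that the array gives for them, since the deposited columns used here pair probes with accessions and not with gene symbols. Of the 10 genes, 8 were measured well enough to be tested, among 17460 genes in all.

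The mFoxO1KO mice carried an inducible deletion of Foxo1 aimed at skeletal muscle, and the control mice did not. Foxo1 encodes a forkhead transcription factor that insulin signalling holds out of the nucleus. All animals were C57BL/6 males, and both genotypes ate an AIN93G diet with 0.625 g/kg doxycycline between the ages of 8 and 14 weeks, so the drug is common to both groups. The labels do not name the promoter that drives the deletion. There were 3 samples of each genotype, put together in pairs on 3 two-colour Agilent arrays, with mFoxO1KO RNA in the Cy5 channel and control RNA in the Cy3 channel on every array. Dyes were never swapped, so the dye and the genotype cannot be told apart for a single probe.

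Fat cells store triglyceride in 1 large droplet (white) or burn it for heat (brown). They are built under the nuclear receptor PPARγ, which binds DNA with the retinoid X receptor and switches on the genes for fatty acid binding, droplet coating and hormone secretion. Muscle holds fat cells between its fibres, and some of these genes, Car3 among them, are also transcribed in the fibres. In whole muscle, fewer cells of a type and less RNA per cell cannot be told apart.

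The upstream DNA of 3 members is shown because it sits beside the gene starts from which the transcripts described here are read. Adipoq and Pck1 were among the members with the highest mean ratios, and Ucp1 is the marker of brown fat. Each stretch is the 250 bases before the annotated start, 5′ to 3′ on the gene's strand (RefSeq, GRCm38.p6), and capitals mark a match to AGGTCA, a half-site of nuclear receptors such as PPARγ. Adipoq lies at chr16:23146286-23146535 (+), Pck1 at chr2:173152823-173153072 (+) and Ucp1 at chr8:83290098-83290347 (+).
Adipoq: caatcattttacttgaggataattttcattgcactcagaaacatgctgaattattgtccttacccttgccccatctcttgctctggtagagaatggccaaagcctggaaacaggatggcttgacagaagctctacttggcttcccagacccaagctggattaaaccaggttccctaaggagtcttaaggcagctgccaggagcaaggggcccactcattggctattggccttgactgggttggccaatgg
Pck1: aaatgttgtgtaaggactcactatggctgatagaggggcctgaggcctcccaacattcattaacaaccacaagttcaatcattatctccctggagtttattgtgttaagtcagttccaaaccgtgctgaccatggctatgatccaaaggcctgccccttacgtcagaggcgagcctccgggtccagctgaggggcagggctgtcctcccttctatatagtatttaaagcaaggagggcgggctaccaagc
Ucp1: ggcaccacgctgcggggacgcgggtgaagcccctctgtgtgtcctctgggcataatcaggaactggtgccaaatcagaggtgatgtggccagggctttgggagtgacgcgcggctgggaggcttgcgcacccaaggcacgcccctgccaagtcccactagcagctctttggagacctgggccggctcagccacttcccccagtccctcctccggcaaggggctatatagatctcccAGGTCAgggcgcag

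Of the 10 genes, 8 had an upstream sequence in the table (10 windows, since Pparg has 3 annotated starts). AGGTCA or its reverse complement TGACCT was in the windows of Ucp1 and of Pparg (2 of its 3 starts), that is in 3 of the 10 windows, against 14% of all 32851 windows of that length. In Ucp1 it began 14 bases before the start. The forkhead core GTAAACA or TGTTTAC was in none of the 10 windows, against 3.17% of all windows. TATAAA or TTTATA was in 1, at a Pparg start, against 12.4%. These are matches of letters only, on both strands, and say nothing of binding.

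The share of probes counted as detected was 56.1% to 56.9% for mFoxO1KO RNA and 52% to 55.9% for control RNA, and no spot was saturated. Labels do not say more of the replicates than that they are biological, so p-values measure the spread between these samples. The targeted gene was checked first. Foxo1 had log2 ratios of -1.5, -2.42 and -2.27 on arrays 1, 2 and 3 (mean -2.06 ± 0.49, SD, n = 3, limma adjusted p = 0.0278), and its second probe had -0.70, -1.64 and -1.84 (mean -1.39) and missed the threshold (limma over single probes, adjusted p = 0.0535). The array with the smallest fall of Foxo1, array 1, was also the one on which the fat markers had their highest ratios. With the channels on a common scale over the arrays, the smaller fall went with a low control sample. The Foxo1 control levels were 11.3, 12.6 and 12.2 (log2) on arrays 1, 2 and 3, and the mFoxO1KO levels 9.83, 10.2 and 9.96. By the second probe they were 10.7, 12.1 and 11.7, and 9.98, 10.4 and 9.84. The part of the Foxo1 fall in the marker ratios, or the reverse, was not tested. Whether the probes lie in the deleted part of Foxo1 is not known here.

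Of the 8 adipocyte markers measured, 7 had mean log2 ratios above 0 in mFoxO1KO over control, and none of these passed the test. Car3 fell. The 7 were higher in mFoxO1KO muscle on arrays 1 and 3, least so for Fabp4 and Pparg on array 3 (0.52 and 0.59). They were closer to equal on array 2, where their ratios lay between -0.029 and 0.37 by the probes tested. Over all genes, 2.75% passed an adjusted p of 0.05 (2.06% higher and 0.699% lower), so 1 call among 8 is a count too small to read against the background. The median log2 ratio of the 8 was 1.39, against 0.0064 over all genes tested. On arrays 1, 2 and 3 it was 2.46, 0.12 and 1.5.

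**Figure D1:**
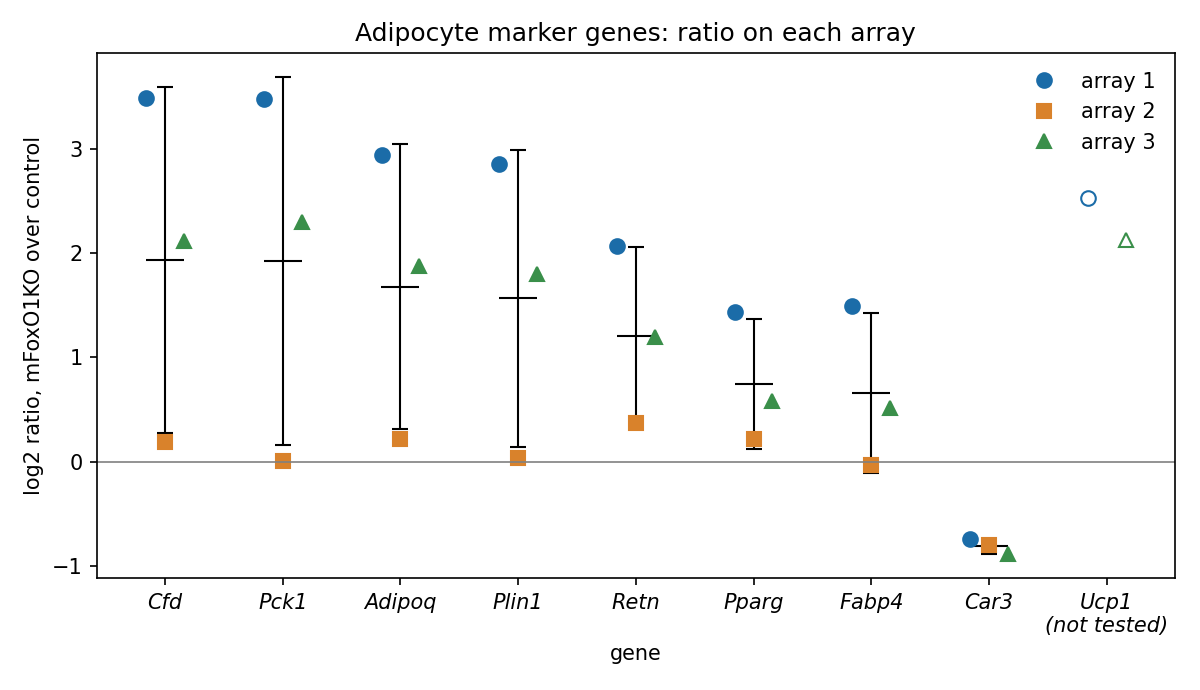
Log2 ratio of mFoxO1KO over control (vertical axis) for each gene (horizontal axis) on array 1 (circles), array 2 (squares) and array 3 (triangles); horizontal bars with whiskers are the mean and SD over the 3 arrays, and open symbols show Ucp1, which was measured on arrays 1 and 3 only. In 7 of 8 genes the order is array 1, array 3, array 2, and Car3 is at about -0.81 on every array.

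The secreted products of fat come first. Adipoq encodes adiponectin, a hormone of fat cells that raises fatty acid use in muscle and liver. Its probe had median signals of 8666, 2897 and 6090 in mFoxO1KO samples on arrays 1, 2 and 3, against 689, 1700 and 926 in the control samples on the same arrays, over local backgrounds of 48 to 60.5 and 37 to 39. The mFoxO1KO samples were high on arrays 1 and 3, the control sample of array 2 was the highest control, and after normalisation the groups did not overlap. The log2 ratios were 2.93, 0.22 and 1.87, with a mean of 1.68 ± 1.37 (SD, n = 3), or 3.20-fold (limma, adjusted p = 0.128).

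Cfd encodes complement factor D, also called adipsin, a serine protease made in large amounts by fat. Its signals were 116030, 47150 and 98326 in mFoxO1KO samples against 5906, 24792 and 11534 in control samples. Of the 7 markers above 0 it had the largest mean ratio, 1.93 ± 1.66 (SD, n = 3) or 3.82-fold, and it did not pass (limma, adjusted p = 0.139). Its array values were 3.49, 0.19 and 2.12, so nearly all of the mean comes from arrays 1 and 3.

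Retn encodes resistin, a cysteine-rich hormone of mouse fat that opposes insulin. It had 2 probes. The one used had signals of 2929, 1130 and 1776 in mFoxO1KO samples against 425, 618 and 450 in control samples, and log2 ratios of 2.07, 0.37 and 1.19 (mean 1.21 ± 0.85, SD, n = 3, limma adjusted p = 0.103). The other probe gave 2.18, 0.56 and 1.49 and a mean of 1.41 ± 0.81. Both probes ordered the arrays the same way by ratio, but their levels differed. With the other probe the mFoxO1KO sample of array 1 had the lowest signal of its group (1174, against 1802 and 3042 on arrays 2 and 3), and the groups overlapped.

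Lep encodes leptin, the hormone that reports fat stores to the brain. It was not well above background in either channel of any array. Its probe is printed in 10 spots, of which 8 to 10 were used per array. These averaged 72.2, 67.2 and 55.9 in mFoxO1KO samples, over backgrounds of 51.6, 48.6 and 50.9, and 77.6, 77.6 and 72.3 in control samples, over backgrounds of 36.2, 36.8 and 38.6. No ratio is given, and leptin transcript was not detectable in either genotype at this signal.

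Among genes that act inside the fat cell, Pparg encodes PPARγ itself. Its probe is also printed 10 times, with 8 to 10 spots used. Mean signals were 2136, 1086 and 1431 in mFoxO1KO samples against 482, 662 and 555 in control samples. The ratios were 1.43, 0.22 and 0.59, and the SD of the ratio between the spots of an array was 0.039 to 0.068, which covers spot noise and not labelling or hybridisation. The mean was 0.75 ± 0.62 (SD, n = 3), or 1.68-fold (limma, adjusted p = 0.138).

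Fabp4 encodes the fatty acid binding protein of fat cells, also called aP2. Its signals of 101000, 66806 and 78829 in mFoxO1KO samples stood against 20134, 39985 and 27630 in control samples. Its mean ratio was the smallest of the 7 at 0.66 ± 0.77 (SD, n = 3, limma adjusted p = 0.223), with 1.49, -0.029 and 0.52 on the arrays. It was the only one of the 7 that lay below 0 on an array, and its groups overlapped. Fabp4 was also among the brightest probes, at the 98.6th percentile of mean intensity. Loess took off 0.52, 0.14 and 0.46 more than the array's median offset from its ratios on arrays 1, 2 and 3, the largest amounts among the 10 genes.

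Plin1 encodes perilipin 1, which coats the fat droplet and gates its breakdown. Signals were 2283, 602 and 1556 in mFoxO1KO samples against 192, 428 and 258 in control samples, and the log2 ratios were 2.85, 0.041 and 1.80. The mean was 1.57 ± 1.42 (SD, n = 3), or 2.96-fold (limma, adjusted p = 0.152).

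Pck1 encodes cytosolic phosphoenolpyruvate carboxykinase, which makes glycerol for triglyceride in fat and glucose in liver, where FoxO1 is known to drive it. Its signals were 15978, 4523 and 21046 in mFoxO1KO samples against 872, 3039 and 2317 in control samples. The mFoxO1KO sample of array 3 was the brightest, as with the other Retn probe, while the ratio was still highest on array 1, whose control sample was the dimmest. The ratios of 3.47, 0.0063 and 2.30 gave a mean of 1.93 ± 1.76 (SD, n = 3, limma adjusted p = 0.153), the widest spread of the 8 genes.

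Ucp1 encodes the uncoupling protein that lets brown fat mitochondria make heat. In mFoxO1KO samples its signal was 705 on array 1 and 576 on array 3 but 69.5 on array 2, against 81, 86 and 67 in the control samples of arrays 1, 3 and 2. Both channels were well above background on arrays 1 and 3 and neither was on array 2. The log2 ratios of arrays 1 and 3 were 2.53 and 2.12, the control values being close to the dimmest signals counted as above background (log2 levels of 6.73 and 6.80 in the control samples, with the lowest such level at 6.39 and 6.46). Near background the ratio depends on the correction: with plain background subtraction and no dye scaling it was 3.82 and 3.53, and in the deposited log ratios, turned to log2, 4.06 and 3.69. Ucp1 was not tested, and the ratio is given for the 2 arrays that measured it.

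Car3 encodes carbonic anhydrase 3, a protein abundant in fat cells and in slow muscle fibres. It went the other way. Its signals were 13432, 5966 and 9146 in mFoxO1KO samples against 13156, 6822 and 9088 in control samples, and after the dye correction the ratios were -0.74, -0.80 and -0.89. Car3 fell by 0.81 ± 0.073 on the log2 scale (SD, n = 3; limma, adjusted p = 0.0188), which is 57.1% of control. The signals as scanned were almost equal in the channels of arrays 1 and 3, so the size of the fall depends on the dye correction. With each array centred on its median and no loess, Car3 had -0.28, -0.81 and -0.55 and a mean of -0.55 ± 0.27 (limma, adjusted p = 0.0425). Without array 2 its adjusted p was 0.108 at a ratio of -0.81. Both channels of an array moved together for this gene, array 1 being 1.06 above array 2 in mFoxO1KO samples and 1.01 in control samples on the log2 scale. The groups overlapped for that reason, and each mFoxO1KO sample was below the control sample of its own array. In fits of the separate channels Car3 did not pass, with an adjusted p of 0.06 with the array as a block and 0.255 without it.

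When the channels were put on a common scale over the arrays, the differences between arrays were found on both sides of the ratio. In 7 of the 8 genes, all but Car3, the control sample of array 2 had the highest level, that of array 3 the next and that of array 1 the lowest, an order found in 17.8% of all genes tested. In 7 of the 8, all but Pck1, the mFoxO1KO samples had array 1 highest, array 3 next and array 2 lowest, an order found in 14.4% of all genes. This is the reverse of the control order in these genes except Car3. The control levels of Car3 had the same order as its mFoxO1KO levels (14.1, 13.1 and 13.5 on arrays 1, 2 and 3). The mFoxO1KO level of Adipoq was 1.52 higher on array 1 than on array 2, on the log2 scale, while the control level was 1.20 lower (-1.20). For Cfd the same differences were 1.25 and -2.05, for Plin1 1.84 and -0.97, for Pparg 0.92 and -0.29, and for Fabp4 0.57 and -0.95. The mFoxO1KO level was higher by more than 1 on array 1 than on array 2 in 6 of the 8 genes, against 0.389% of all genes tested. Car3 was among the 6, with a control difference of 1.01. Retn was among them by the probe used, while its other probe had -0.62. These orders and differences have the shape of the members' own values, so the counts describe that shape and are no separate support.

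**Figure D2:**
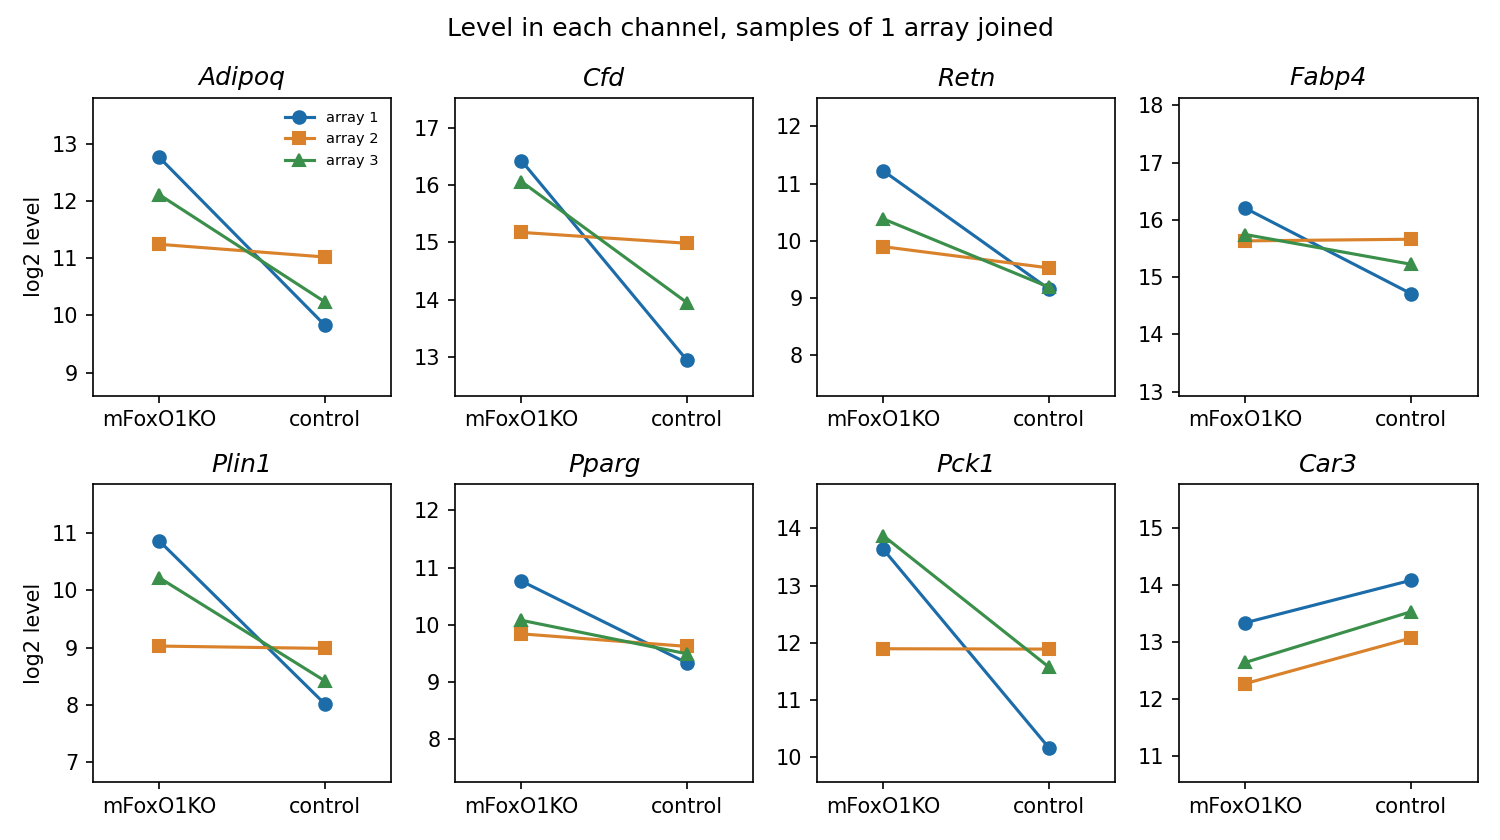
Log2 level (vertical axis, same span in each panel) of 8 genes in the mFoxO1KO and control channels (horizontal axis), with the samples of one array joined by a line. Lines of array 1 and array 3 descend to the control in 7 panels while that of array 2 is nearly flat, and in the Car3 panel all lines ascend to the control.

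The levels of mFoxO1KO and control samples did not overlap in 6 of the 8 genes (Adipoq, Cfd, Retn, Plin1, Pparg and Pck1), where every mFoxO1KO sample was above every control sample. This was so of 14% of all genes tested. In these genes array 2 held both the lowest mFoxO1KO and the highest control level, by the probe used. The count therefore rests on array 2 ratios above 0 and is not separate from the next count. The margin on array 2 was small for Pck1 (log2 levels of 11.898 against 11.892) and Plin1 (9.03 against 8.985). By the other Retn probe the groups overlapped. Of the 8 genes, 6 were above 0 on all 3 arrays, against 27.9% of all genes, and Car3 was below 0 on all 3, against 24.5%. A log2 ratio above 1 on both arrays 1 and 3 was found in 5 of 8 (Adipoq, Cfd, Retn, Plin1 and Pck1), against 0.584% of all genes. The order array 1, array 3, array 2 of the ratios was found in 7, against 18.7%. The 7 markers had an SD over the arrays of 0.62 to 1.76, while the median SD of all genes was 0.113 and 2.92% of all genes had an SD above 0.5. At an unadjusted p under 0.05 (limma), 6 of the 8 were higher, against 15.3% of all genes. The criteria of array order, of ratios above 1 on arrays 1 and 3 and of SD have the shape that the members themselves show. Their counts describe that shape and are no separate support.

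How far the markers stood from 0, and whether they passed, also depended on the dye scale. With median centring in place of loess all 8 passed, 7 higher and Car3 lower (limma, adjusted p of 0.00405 for Cfd to 0.0425 for Car3), but this setting moved the median of all genes to 0.156 and called 1204 genes, 1153 of them higher and 51 lower, against 359 and 122 in the fit above. Under it, and with that shift of all genes included, Adipoq stood at 1.89, Cfd at 2.27 and Fabp4 at 1.03, and on array 2 Plin1 and Pck1 stood at -0.018 and -0.04. The SD over the arrays rose along with the mean in each of the 7, from 1.37 to 1.61 for Adipoq and from 1.76 to 2.005 for Pck1. What lowered the adjusted p-values under this setting was not tested. With the log ratios that the scanner software had deposited, the 7 ranged from 0.56 for Fabp4 to 1.97 for Pck1, Pck1 on array 2 turned to -0.0072, and only Car3 passed. No setting tried turned the sign of any member's mean.

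**Figure D3:**
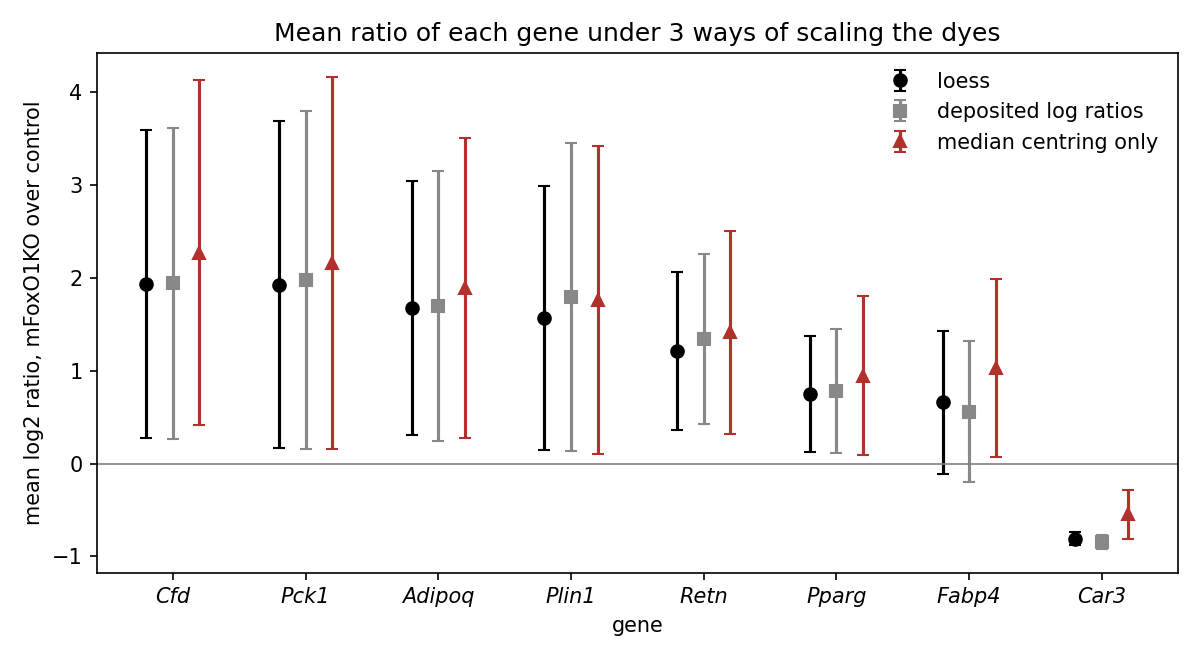
Mean log2 ratio of mFoxO1KO over control (vertical axis) of 8 genes (horizontal axis) under loess (circles), the deposited log ratios (squares) and median centring without loess (triangles), with whiskers for the SD over 3 arrays. Each gene keeps its sign, and Car3 moves from -0.81 under loess to -0.55 under median centring.

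Other genes of white and general fat cells were read from a list of 25, all measured. Of these 1 rose, against 2.06% of all genes, and 24 missed the threshold. The order array 1, array 3, array 2 was found in 20, against 18.7% of all genes. The median ratio was 0.53, and 1.04, 0.083 and 0.53 on arrays 1, 2 and 3. Dgat2, which adds the last fatty acid to triglyceride, rose by 1.02 ± 0.39 (SD, n = 3, limma adjusted p = 0.0493), with 1.08, 0.60 and 1.39 on the arrays. Cidec, a droplet fusion protein gene, had 3.08, 0.88 and 2.05 (adjusted p = 0.0738). Lpl, the lipoprotein lipase gene, had 1.1, 0.38 and 0.88, and Lipe, the hormone-sensitive lipase gene, 0.74, 0.26 and 0.59. Thrsp, a gene of fatty acid synthesis control, had 0.41, 0.20 and 0.43. Others of the list had means near 0. Aqp7, a glycerol channel gene, had a mean of -0.0058, with 0.42, -0.31 and -0.13 on the arrays. Gpd1, the glycerol phosphate dehydrogenase gene, had -0.026, with 0.021, -0.12 and 0.015. Both had the order array 1, array 3, array 2. Adrb3, the β3-adrenergic receptor gene, had 3.01, -0.13 and 1.03 by the probe used and only 0.61, 0.16 and 0.12 by its other probe.

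Of 20 other brown fat genes, 16 were measured. Pank1, which starts coenzyme A synthesis (0.85 ± 0.14), Slc27a2, a fatty acid transport protein gene (1.23 ± 0.38), and Ppargc1a, the coactivator PGC-1α (1.35 ± 0.52), rose (SD, n = 3, limma adjusted p of 0.0261, 0.0401 and 0.0492), none fell and 13 did not pass. These 3 are also expressed in tissues other than fat, and 2.06% of all genes passed as higher. The list had medians of 0.20, 0.34 and 0.22 on arrays 1, 2 and 3, and 2 of the 16 had the order array 1, array 3, array 2, against 18.7% of all genes. Ppargc1a was highest on array 2 with 1.95, against 1.08 and 1.01 on arrays 1 and 3. Cidea, a droplet protein gene of brown fat, had 4.04, 1.33 and 4.0 (limma, adjusted p = 0.0633). Kcnk3, a potassium channel gene, had 1.31, 0.36 and 1.52, Ntrk3 0.35, 0.22 and 0.21, and Acot11, an acyl-CoA thioesterase gene, 0.14, 0.33 and 0.35. Regulators of brown fat identity did not pass and had means of -0.063 for Prdm16, 0.045 for Ebf2 and -0.25 for Zic1. Elovl3, a fatty acid elongase gene, was well above background in mFoxO1KO samples on 2 arrays and in no control sample. Bmp8b and Lhx8 were not above background anywhere.

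Paralogues of the members, some of them the forms that muscle fibres use, were read next. Of 21 paralogues 19 were measured, 3 rose, against 2.06% of all genes, and 16 missed the threshold. The order array 1, array 3, array 2 was found in 5, against 18.7% of all genes. Car14, a membrane carbonic anhydrase gene, rose by 1.22 ± 0.14, to 2.32-fold (limma, adjusted p = 0.0121), with 1.30, 1.05 and 1.30 on the arrays, while Car3 of the same family fell. Car1 had -0.19 ± 0.012 (adjusted p = 0.113) and Car5b, the mitochondrial form, 0.58 ± 0.28. Ppara, the nuclear receptor of fat oxidation related to Pparg, rose by 0.87 ± 0.088 (adjusted p = 0.0179), with 0.77, 0.90 and 0.94, so that array 2 was not low as it was for Pparg. Its other probes gave means of 0.82 and 0.26. Plin5, the droplet coat gene of oxidative tissue, rose by 0.66 ± 0.21 (adjusted p = 0.0491), and Plin2, the coat gene of most other cells, had 1.33 ± 0.55 (adjusted p = 0.0511). Ucp3, the uncoupling protein gene of muscle, had 0.51 ± 0.16 (adjusted p = 0.0505), with 0.65, 0.53 and 0.34. Fabp3, the binding protein of muscle and heart, had 0.33 ± 0.20.

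Of 7 genes for receptors and binding partners of the fat hormones none passed, 4 means were above 0 and the median was 0.013. The medians on arrays 1, 2 and 3 were 0.090, -0.059 and 0.021, and 3 of the 7 had the order array 1, array 3, array 2, against 18.7% of all genes. The adiponectin receptor genes Adipor1 and Adipor2 had -0.042 ± 0.056 and 0.013 ± 0.13, the leptin receptor gene Lepr 0.077 ± 0.012, Cdh13, which binds adiponectin, -0.067 ± 0.099, and Tlr4 0.19 ± 0.13. C5ar2, a complement receptor gene, had 0.089 ± 0.16 (SD, n = 3 each, adjusted p from 0.18 for Tlr4 upward). Genes of fat cell precursors also had none that passed among 12, with a median of 0.12. With 2.75% of all genes passing, both lists are too small for a lack of calls to be read. Pdgfra, the growth factor receptor that marks these precursors, had 0.25 ± 0.11, Ly6a 0.49 ± 0.30, the fibrillin gene Fbn1 0.30 ± 0.13 and Cebpd, an early factor of fat cell formation, -0.87 ± 0.53. The order array 1, array 3, array 2 was found in 2 of the 12, a share near the 18.7% of all genes.

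**Figure D4:**
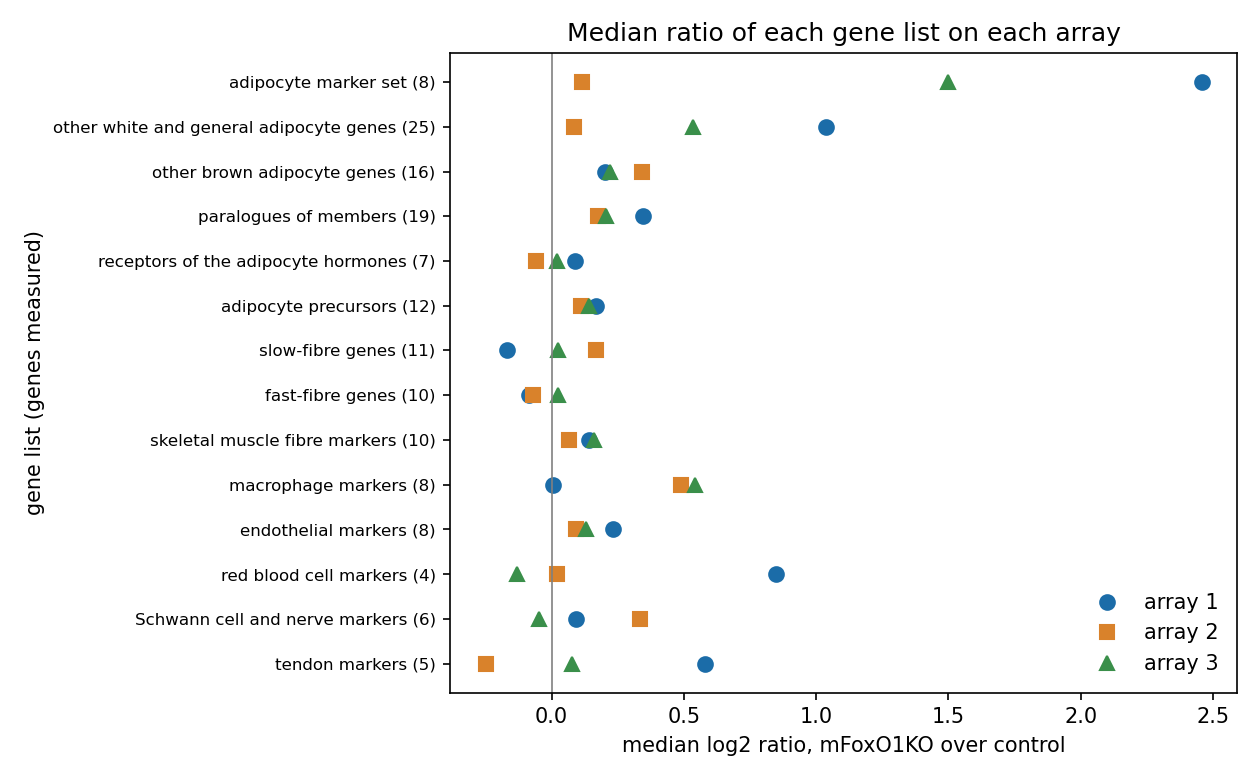
Median log2 ratio of mFoxO1KO over control (horizontal axis) of each gene list with 4 or more genes measured (vertical axis, number of genes in brackets) on array 1 (circles), array 2 (squares) and array 3 (triangles). The adipocyte marker set runs from 0.12 on array 2 to 2.46 on array 1, and the lists of muscle fibre genes stay within 0.17 of 0.

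Markers of muscle and of other cells were set beside these values. Summed over the 8 fat markers measured, the linear level was 101500 to 199700 in mFoxO1KO samples and 55520 to 100800 in control samples, with log2 ratios of the sums of 1.85, 0.009 and 1.09 on the arrays. Cfd and Fabp4 made up most of each sum, which also holds Car3, a gene that fell. The sums therefore say little of the dimmer markers. Muscle fibre markers were all measured (10 of 10) and summed to 748100 to 812000 in mFoxO1KO samples and 730800 to 731700 in control samples, and Mb, the myoglobin gene, and Actn2, a Z-disc gene, rose (0.57 ± 0.14 and 0.65 ± 0.15, SD, n = 3, limma adjusted p of 0.0448 and 0.0396). Acta1, the skeletal actin gene, had 0.21 ± 0.093 and Ryr1, the calcium release channel gene, -0.36 ± 0.26. Of 11 slow-fibre genes, all measured, 1 (Mb) rose, 0 fell and the other 10 missed the threshold. Over all genes 2.06% passed as higher and 0.699% as lower. The slow myosin gene Myh7 had -0.47 ± 0.38, Atp2a2, a calcium pump gene, 0.28 ± 0.085, Tpm3 0.15 ± 0.17 and Casq2 0.11 ± 0.072. The other probes of Atp2a2 and Tpm3 gave means of 0.086 and -0.20, the second of opposite sign. Of 10 fast-fibre genes measured (of 11) none rose and 9 did not pass. Myl1, a light chain gene, fell by 0.60 ± 0.095 (adjusted p = 0.0355), and Casq1 (-0.28), Myh1 (0.39), Tnni2 (-0.18) and Mylpf (0.17) did not pass.

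Macrophage markers summed to 7103 to 9271 in mFoxO1KO samples and 6065 to 7976 in control samples, with 8 of 10 measured. Cd14, a co-receptor for bacterial lipid, rose by 0.95 ± 0.31 (limma, adjusted p = 0.0452). The list had medians of 0.0058, 0.49 and 0.54 on arrays 1, 2 and 3, which is not the order of the fat markers. Mrc1, the mannose receptor gene, had -0.041, 0.66 and 0.75. Endothelial markers (8 of 8) summed to 6277 to 7813 and 5284 to 8117, with 0.44, 0.33 and 0.27 for Pecam1, an adhesion gene of vessels. Red blood cell markers (4 of 6) summed to 14500 to 27700 and 9832 to 27600, the globin genes Hbb-bt and Hba-a1 having 1.07 and 1.04 on array 1 and -0.24 and -0.34 on array 3. The other 2 measured were Alas2, a haem synthesis gene, with 0.66, 0.14 and -0.026, and Slc4a1, the anion exchanger gene, with -0.042, 0.025 and 0.00054. Nerve sheath markers (6 of 6) summed to 2028 to 3228 and 2057 to 2507, and tendon markers (5 of 6) to 4140 to 7160 and 4201 to 8311, each pair given for mFoxO1KO and then control samples. The tendon list had medians of 0.58, -0.25 and 0.076 on arrays 1, 2 and 3, and the endothelial list 0.23, 0.093 and 0.13. Both have the order of the fat markers, array 1, array 3, array 2. It was found in 3 of 5 tendon genes and 2 of 8 endothelial genes, against 18.7% of all genes. Of the keratinocyte markers Krt1, Krt14 and Lor were not above background in any sample, Krt5 was in 1 mFoxO1KO sample, and Krt10 was measured (0.32 ± 0.18). No marker of these last 5 lists passed. The part of any of these cell types in the fat marker ratios was not tested.

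The genes whose 3 ratios lay nearest to those of Adipoq, by root mean square difference over the 3 arrays and outside the set, were Cyp2e1 (0.27), Scd1 (0.28), Arxes2 (0.30), Slc36a2 (0.30), Mrap (0.31), Cdo1 (0.31), Pde3b (0.34) and Adig (0.34), against a median of 2.01 over all genes. Scd1, Mrap, Pde3b and Adig, 4 of the 8, are on the list of white and general fat cell genes. Cyp2e1, an alcohol-oxidising cytochrome gene, had 3.09, 0.66 and 1.97. None of the 8 passed the test (limma, adjusted p of 0.0825 for Scd1, with 2.88, 0.71 and 1.87). Nearest to Car3 were Lsp1 (0.092), Gm2176 (0.11), Sparcl1 (0.13), Tnfrsf19 (0.14), Zfp783 (0.15), Fgfbp1 (0.15), 2210416O15Rik (0.16) and Hpn (0.19), against a median of 0.83 over all genes. All 8 fell, Fgfbp1 by 0.83 ± 0.12 and Lsp1 by 0.74 ± 0.089 (SD, n = 3, limma adjusted p of 0.0248 and 0.0254), with array values of -0.98, -0.76 and -0.77 and of -0.75, -0.65 and -0.83. Likeness is measured over 3 arrays of 1 slide and is a description. The genes were chosen for ratios like those of Adipoq or Car3. Their signs, and whether they passed the test, follow largely from that choice and are no separate support.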

How the data were processed

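RNA (0.2 µg per sample, per the labels) was labelled with Cy5 for mFoxO1KO and Cy3 for control muscle. The deposited files hold, per the file headers, median intensity of each spot and its background as scanned, and processed intensity and log10 ratios (processed Cy5 over Cy3) from Agilent Feature Extraction 11.5.1.1. The submitters' processing notes name 9.3.2.1. The deposited flags (other columns, per the file headers) mark spots above background and outliers. All arrays lie on 1 slide. From median intensities, background was corrected with normexp (offset 50) and dyes with loess (limma 3.58.1, R 4.3.3), control spots having weight 0. Between 281 and 319 flagged spots per array were left out and spots of a probe averaged. Of 39429 probes, 27508 took a symbol from RefSeq GRCm38.p6 by accession. Probes above background in one channel on all arrays (in a share of 0.5 of their spots) were kept, the brightest per gene tested. The log2 ratio was tested against 0 (lmFit, eBayes, two-sided, Benjamini-Hochberg over 17460 genes, threshold 0.05). Channel levels used Aquantile between arrays. Members and lists were chosen with earlier results of these data known. Named were all members, list members past the threshold and the next 4 by p, Foxo1, and the 8 nearest genes to Adipoq and Car3. The lists of cell type markers (muscle fibre, macrophage, endothelial, red blood cell, nerve, tendon and keratinocyte) did not follow this rule. Of these, genes past the threshold and some others were named. Aqp7, Gpd1, Adrb3, Prdm16, Ebf2, Zic1, Fabp3, Adipor1 and Adipor2 were chosen after their values were seen. On simulated ratios for 17460 genes of this comparison, 21, 37, 47 and 45 of 50 genes each were recovered at 1.5-fold, 2-fold, 4-fold and 8-fold, with 9 false calls among 159. Recovery at the spread of the 7 markers above 0 (SD over arrays 0.62 to 1.76, median of all genes 0.113) was not tested.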

Additional observations from a re-analysis of the deposited data

How the results depend on the processing

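The 7 markers above 0 and Car3 kept the sign of their mean under all alternatives tried for them. The count of genes passing the threshold, 481, was 186 with a normexp offset of 10, 212 with the software's processed signals and with the deposited log ratios, 1204 with median centring, 746 without the filter, 55 with probes above background in both channels, 1649 in separate channels with the array as a replicate block and 216 without a block, and 49 (without replicate 2) to 405 with an array left out. The count of members passing, 1, was 8 with median centring, 0 in separate channels without a block and 0 to 1 with an array left out. Under the block it was 1 as well, but a different gene: Retn passed (adjusted p = 0.0454) and Car3 did not (0.06). Members above 0 on every array stayed between 5 and 7. Car3 passed in 14 of 17 alternatives and lost the call without replicate 2 and in both separate-channel fits. Without replicate 1 the means of the 7 lay between 0.25 for Fabp4 and 1.15 for Cfd, and without replicate 2 they were 1.01 for Fabp4 to 2.88 for Pck1. With 3 arrays and no dye swap the number of arrays limits all values, and Lep and array 2 of Ucp1 are limited by signal over background.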
